A study of Mus musculus with 4 samples.

Results

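Glucocorticoid receptor (GR) sites around 4 C/EBP transcription factor genes (Cebpa, Cebpb, Cebpd and Cebpg) and the tyrosine phosphatase gene Ptpn1 were examined in mouse mammary cells. Sites were taken from the deposited peak lists when their centre lay in the RefSeq span of 1 of these 5 genes or within 200 kb of it. The rule gave 12 of the 2883 peaks listed at 12 h and 18 of the 5638 peaks listed at 1 h, which together made 20 sites. The genes were chosen by the tag counts of these same lists, because the interval between Cebpb and Ptpn1 holds the peak with most tags in both lists. The numbers of tags that follow therefore describe these libraries, and no test was made on them.

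The cells were 33AP1C9, which per the labels derive from the mouse C127 line of mammary epithelial origin. Every library came from this line, which carries integrated MMTV-pp7 reporters and a GFP-tagged PP7 coat protein, tools for watching transcription from a hormone-responsive viral promoter. Cells kept in charcoal-stripped serum were left untreated (0 h) or received 600 nM corticosterone, the main glucocorticoid of rodents, for 1 h or 12 h before chromatin immunoprecipitation for GR. There was 1 library per group, with 79203826 tags in the untreated, 90556119 in the 1 h and 97749688 in the 12 h library, so no difference has a replicate check. Identity of the cells could not be checked against expression markers, because only binding was measured. The labels give a different catalogue number for the second GR antibody in each sample, rising by the same step from sample to sample, so whether the antibody itself differed is unknown. If it did, antibody and time cannot be told apart.

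C/EBP proteins are basic leucine zipper factors that bind DNA as dimers. In adipocyte and liver cells Cebpb and Cebpd are early genes that respond to glucocorticoid and cAMP, and Cebpb is needed for growth and differentiation of the mammary epithelium. Cebpa, a later gene of the adipocyte programme, restrains proliferation, and Cebpg encodes a short partner that dimerises with other bZIP proteins. Ptpn1 encodes PTP1B, a phosphatase of the endoplasmic reticulum membrane that switches off the insulin receptor and JAK2.

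Sequence was at hand for the start of annotated transcripts, and it covered 2 of the 20 sites. Both lie on chromosome 2, and they are printed because they show what DNA lies under a GR peak near Cebpb. The window at the start of a transcript of Gm32287, a long noncoding RNA gene, covered 288 bases of the 12 h peak and 279 of the 1 h peak. The centre of that site lay 87.1 kb from Cebpb. The window of Gm11476, another long noncoding RNA gene, held the centre of the 12 h peak nearest to Snai1 but not the centre of its 1 h peak. The start of Cebpb is printed beside them as the promoter of the family member closest to the strongest site, at which no peak was listed. Sequences are RefSeq, GRCm38.p6 (whose chromosomes are those of mm10), 5′ to 3′ on the strand of the transcript, from 250 bases before to 50 after its start. Capitals mark matches to the motifs searched.
Gm32287 (chr2:167777365-167777664, minus strand): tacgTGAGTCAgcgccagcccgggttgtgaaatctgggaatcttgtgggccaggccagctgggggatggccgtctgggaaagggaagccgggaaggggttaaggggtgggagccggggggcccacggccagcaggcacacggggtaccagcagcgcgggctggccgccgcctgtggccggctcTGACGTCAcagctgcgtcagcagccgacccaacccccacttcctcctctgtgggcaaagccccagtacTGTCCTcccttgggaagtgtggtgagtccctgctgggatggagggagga
Gm11476 (chr2:167553062-167553361, plus strand): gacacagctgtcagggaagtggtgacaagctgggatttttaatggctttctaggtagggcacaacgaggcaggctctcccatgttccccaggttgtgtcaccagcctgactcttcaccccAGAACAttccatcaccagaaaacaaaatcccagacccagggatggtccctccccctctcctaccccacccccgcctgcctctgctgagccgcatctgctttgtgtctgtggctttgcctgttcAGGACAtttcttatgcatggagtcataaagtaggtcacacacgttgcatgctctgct
Cebpb (chr2:167688665-167688964, plus strand): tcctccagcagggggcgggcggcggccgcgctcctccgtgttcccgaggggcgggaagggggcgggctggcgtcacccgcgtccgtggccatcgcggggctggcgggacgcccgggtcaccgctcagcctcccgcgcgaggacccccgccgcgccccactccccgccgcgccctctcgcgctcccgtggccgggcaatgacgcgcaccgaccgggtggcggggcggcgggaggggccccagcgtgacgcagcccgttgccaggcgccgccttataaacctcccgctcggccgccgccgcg

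The motifs were searched on both strands. The single GR hexamer was searched as AGNACA, which reads TGTNCT on the other strand. The full GR element was searched as AGNACA and then TGTNCT after any 3 bases, so every full element also counts as a hexamer. The C/EBP motif was searched as TTGCNNAA, the AP-1 motif as TGANTCA and the cAMP response element (CRE) as TGACGTCA. The Gm32287 window held a CRE match 49.5 bp from the centre of the 1 h peak, a GR hexamer 116.5 bp away and an AP-1 match 130 bp away, and no full GR element. In the Gm11476 window there were 2 GR hexamers, the nearer of them 31.5 bp from the centre of the 12 h peak and 165.5 bp from that of the 1 h peak. No motif of the 5 was found in the windows of Cebpb, Cebpa and Cebpg, and the Ptpn1 window held 1 C/EBP match. Of 32817 windows of this length in RefSeq, the CRE was in 1.79%, the AP-1 motif in 7.81%, the C/EBP motif in 10.8%, the GR hexamer in 50.5% and the full GR element in 0.064%. A match in such a window is a description of its letters and not a measured contact.

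The strongest site of both lists lay in the interval between Cebpb and Ptpn1 (chr2:167844622-167844904 at 1 h), outside every annotated gene. It was 154 kb past the end of Cebpb and 86.0 kb before the span of Ptpn1. It held 443 tags at 12 h, against 1.64 in the same window of the untreated library, and 433 tags at 1 h, against 1.52 in the untreated library. Tags here and below are normalised to a library of 10000000 unless called raw. The next peak of each list held 421 tags at 12 h and 378 at 1 h. On the log2 scale the 12 h library over the 1 h library was at 0.03, with a 95% counting interval of -0.03 to 0.10 when scaled by library totals. With the median of all shared sites taken as level instead, it was at 0.53. Taken per base of the window, which is 302 bp at 12 h and 282 bp at 1 h, the ratio was -0.07.

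The tags of the site were tightly placed. Its focus ratio, the share of tags on the side of the centre where a point source puts them, was 0.979 at 12 h and 0.960 at 1 h, against list medians of 0.838 and 0.841. Its raw tags came to 14.3 per base at 12 h and 13.9 at 1 h, where the header gives 4 as the maximum of tags considered per base. The caller's score is not a share of the raw tags and can exceed them, as at the site 7.02 kb away (484 against 475 at 12 h). At the strongest site it was 94.9% of the raw tags at 12 h and 96.7% at 1 h. A score below the raw tags was found for 5.41% of 12 h peaks and 3.62% of 1 h peaks. How far repeated tags set the height of this peak was not tested.

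**Figure D1:**
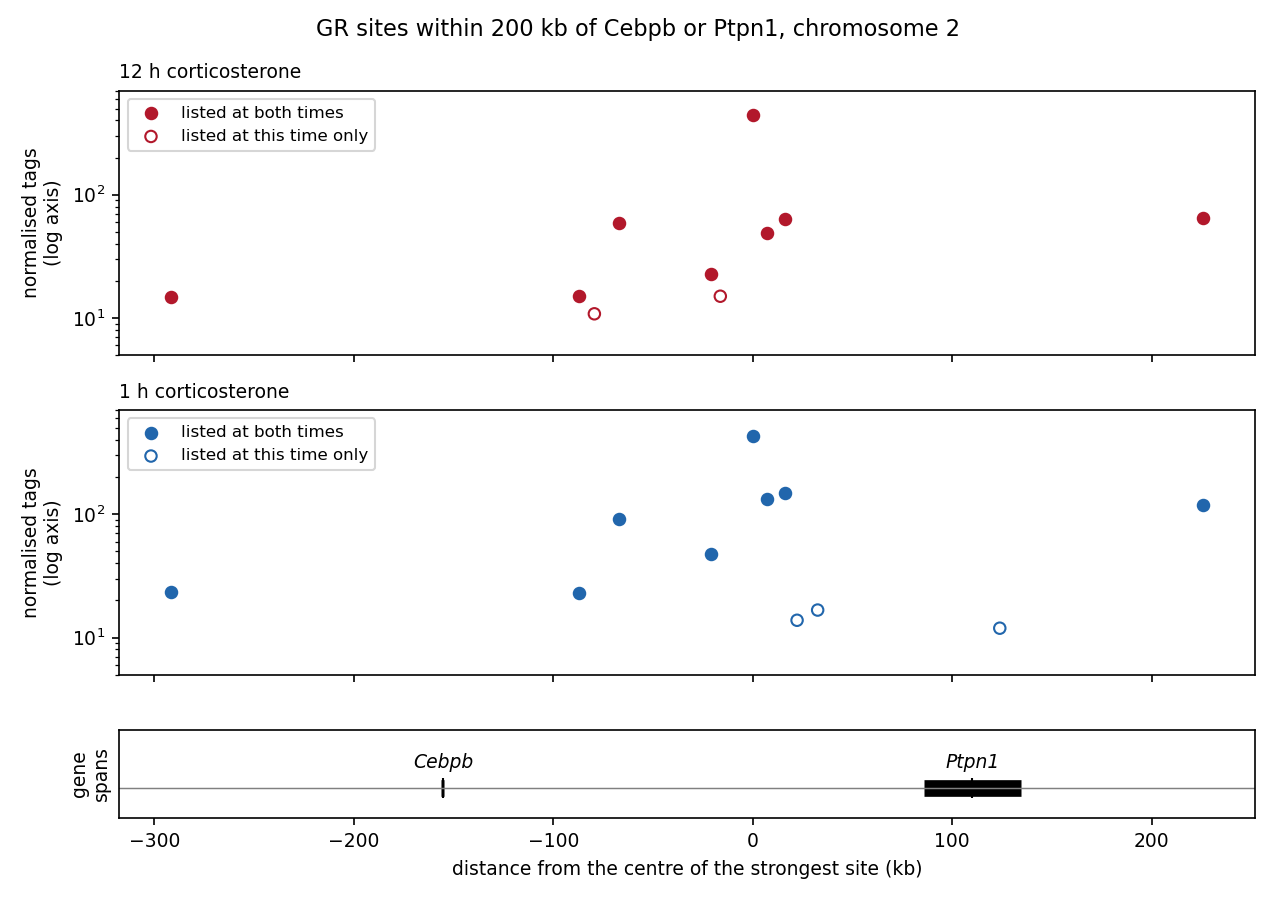
Normalised tags (log axis) of the 13 sites within 200 kb of Cebpb or Ptpn1, against distance from the centre of the strongest site in kb, at 12 h (top) and 1 h (middle), with the gene spans below. Filled points were listed at both times, open points at 1 time only. The strongest site is at 443 tags at 12 h, against 433 at 1 h; the other filled points are all lower at 12 h.

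The sites next to it that were listed at both times held fewer tags at 12 h than at 1 h. The site 7.02 kb nearer to Ptpn1 (chr2:167851643-167851925, in the span of the noncoding gene Gm32845) held 48.6 tags at 12 h and 132 at 1 h, a log2 ratio of -1.44 (-1.60 to -1.29). The site 16 kb nearer to Ptpn1 (chr2:167860589-167860871, in the spans of Gm32845 and Gm33033) held 63.2 and 150 tags at 12 h and 1 h, a log2 ratio of -1.24 (-1.38 to -1.10). On the Cebpb side, the site 21.2 kb away (chr2:167823453-167823735) held 22.7 tags at 12 h and 47.3 at 1 h, a log2 ratio of -1.06 (-1.30 to -0.82). All 3 were at least 2-fold lower at 12 h. The strongest site was chosen for its tags at both times, so its own ratio is given as a description and not set against theirs by a test.

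Gaps of this size between close sites occurred elsewhere too. The log2 ratio of the strongest site lay 1.47 above that of its neighbour 7.02 kb away. The whole series had 255 pairs of adjacent shared sites up to 20 kb apart. Their median absolute difference was 0.58, and 9.41% of them differed by at least 1.47. The strongest site was chosen for its tags at both times, so this share describes the pair and is not a test. Of the 50 shared sites with most tags at 1 h, 45 were lower at 12 h and 5 were level or higher, the site between Cebpb and Ptpn1 being 1 of the 5. These 50 were ranked on their 1 h tags, and ranking on the denominator pulls a ratio down.

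Nearer to Cebpb, the 2 sites listed at both times were lower at 12 h by a smaller factor. The site under the Gm32287 window printed above (chr2:167777386-167777668), 87.1 kb past Cebpb and also in the span of Gm14321, held 59.4 tags at 12 h and 92.1 at 1 h, a log2 ratio of -0.63 (-0.79 to -0.48). The untreated library held 15 and 14 raw tags in those windows. The site 67.2 kb past Cebpb (chr2:167757476-167757758), the closest to that gene in either list, held 15.2 and 23.1 tags at 12 h and 1 h, a log2 ratio of -0.60 (-0.91 to -0.29). No peak was listed in the span of Cebpb or within 50 kb of it. On the other side of the gene, 136 kb away and 10.2 kb from Snai1, a gene for a repressor of epithelial identity, 1 site held 14.9 tags at 12 h and 23.2 at 1 h, a log2 ratio of -0.63 (-0.95 to -0.32). The 12 h and 1 h peaks there overlapped with centres 134 bp apart and had focus ratios of 0.660 and 0.619, below the list medians.

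Around Ptpn1 itself the signal was low. The site inside its span (chr2:167968500-167968782) held 11.9 tags at 1 h, against 1.52 in the untreated library, and was not listed at 12 h. By the untreated tags of that 1 h window, the caller's minimum fold of 6 over the untreated library came to 9.09 tags. A 12 h peak would be judged on its own window, whose untreated tags are unknown here. Past the gene, 91.2 kb from its span and 10.4 kb from the polarity gene Pard6b, a stronger site (chr2:168070470-168070752) held 65.0 tags at 12 h and 119 at 1 h, a log2 ratio of -0.88 (-1.02 to -0.73). It was closer to Pard6b than to Ptpn1, as the Snai1 site was closer to Snai1 than to Cebpb.

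In the interval between Cebpb and Ptpn1, 240 kb with 13 annotated noncoding RNA genes and no other protein-coding gene, 8 peaks were listed at each time. They held 678 tags at 12 h over 2416 bp, a mean of 84.7 per site, and 907 tags at 1 h over 2256 bp, a mean of 113 per site. The strongest site made up 65.3% of that sum at 12 h and 47.7% at 1 h. The other 7 peaks at each time, which are not all the same sites, summed to 235 tags at 12 h and 474.5 at 1 h. Among 19697 gaps between neighbouring protein-coding genes, this interval ranked second by summed tags at both times, a rank that rests on the peak it was chosen for. By number of peaks it ranked 4th at 12 h and 17th at 1 h, ties taking the best rank. The gap in first place, between Adamts5 and N6amt1, is 1453 kb long and held 754 tags at 12 h and 1108 at 1 h.

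Of the sites in the interval, 6 were listed at both times and 4 at a single time. The 12 h list alone held a site 16.3 kb from the strongest (chr2:167828352-167828654, 15.0 tags) and a site 74.9 kb past Cebpb (chr2:167765201-167765503, 10.8 tags). The fold of the second over the untreated library was 6.13, just above the minimum of 6. By the untreated tags of its 12 h window, a 1 h level under 10.6 tags misses that minimum. The 1 h list alone held sites of 13.8 and 16.7 tags, 22.2 and 32.6 kb from the strongest on the Ptpn1 side. By the untreated tags of their 1 h windows, the minimum fold came to 11.4 and 3.79 tags. An unlisted site can also miss the minimum of 75 raw tags (7.67 normalised tags at 12 h and 8.28 at 1 h) or the minimum fold of 6 over the surrounding 10 kb. Tags of an unlisted site in the other treated library are unknown here, so a site of a single list is not shown to be unbound at the other time.

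Cebpg and Cebpa are neighbours on chromosome 7 and shared most of their sites. The 1 site listed at both times (chr7:35064982-35065264) lay between them, 8.56 kb from Cebpg on the side of its start and 54.2 kb from Cebpa. Its nearest protein-coding gene was Gm45095, 7.48 kb away. Of the sites found, this site was the closest to any of the 4 C/EBP genes. It held 8.49 tags at 12 h, against 1.14 in the untreated library, and 19 tags at 1 h, against 1.14. The log2 ratio was -1.16 (-1.56 to -0.78). At 12 h its fold over the surrounding region was 6.11, close to the minimum of 6. Its raw tags numbered 83, close to the caller's threshold of 75 tags.

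The other 4 sites on chromosome 7 were in the 1 h list alone, and each lay inside another protein-coding gene. Pepd, the prolidase gene next to Cebpg, held 22.3, 29.8 and 11.3 tags at sites 116, 68.7 and 24.9 kb from Cebpg. The site of 29.8 tags (chr7:34977565-34977847) had a fold of 26.2 over the untreated library and 16.8 over its surroundings, and the fold minimum at 12 h was 6.82 tags there, below the tag minimum of 7.67. A site of 25 tags in the overlapping spans of Wdr88 and Gpatch1, 142 kb from Cebpa, had 27 raw tags in the untreated library, the most at any of the 20 sites, and a fold of 7.32. By the untreated tags of its 1 h window, the minimum fold came to 20.5 tags.

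**Figure D2:**
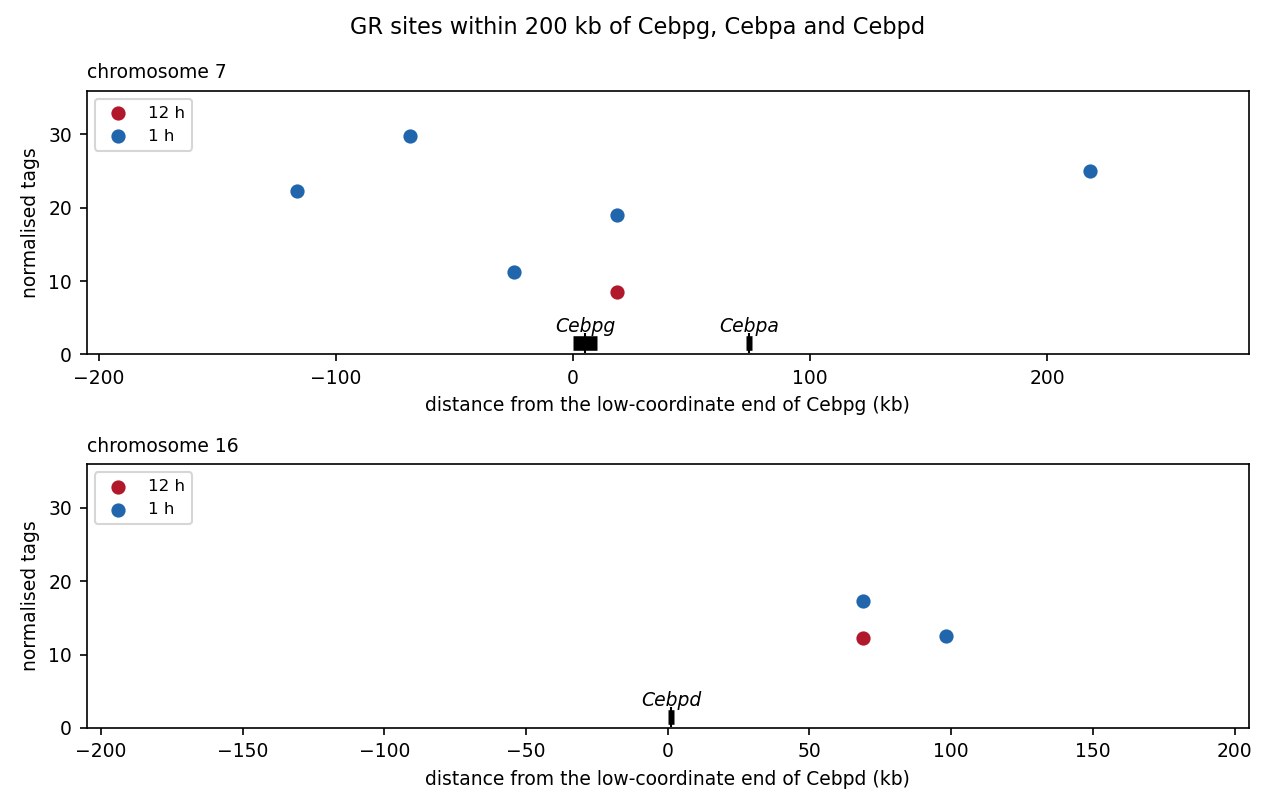
Normalised tags of sites within 200 kb of Cebpg or Cebpa on chromosome 7 (top) and of Cebpd on chromosome 16 (bottom), against distance in kb from the low-coordinate end of Cebpg or Cebpd; black bars are gene spans. Each chromosome has 1 site at 12 h, of 8.49 and 12.2 tags, against 5 and 2 sites at 1 h.

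Cebpd, which is known as an early glucocorticoid-responsive member of the family in adipocyte precursors, had 1 site at 12 h and 2 at 1 h, all inside the neighbouring gene Spidr, a DNA repair scaffold gene. The site 66.5 kb away (chr16:15955867-15956149) held 12.2 tags at 12 h and 17.3 at 1 h, a log2 ratio of -0.51 (-0.87 to -0.16). The untreated library held 8 and 5 raw tags there. The site 96.0 kb away (chr16:15985410-15985692) held 12.5 tags at 1 h alone, with a local fold of 6.61 against the minimum of 6. Nothing was listed within 50 kb of Cebpd. Tags near Cebpd were far below those of the interval next to Cebpb at both times. That interval was chosen for the strongest peak of both lists, so nothing about Cebpd is read from this.

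**Figure D3:**
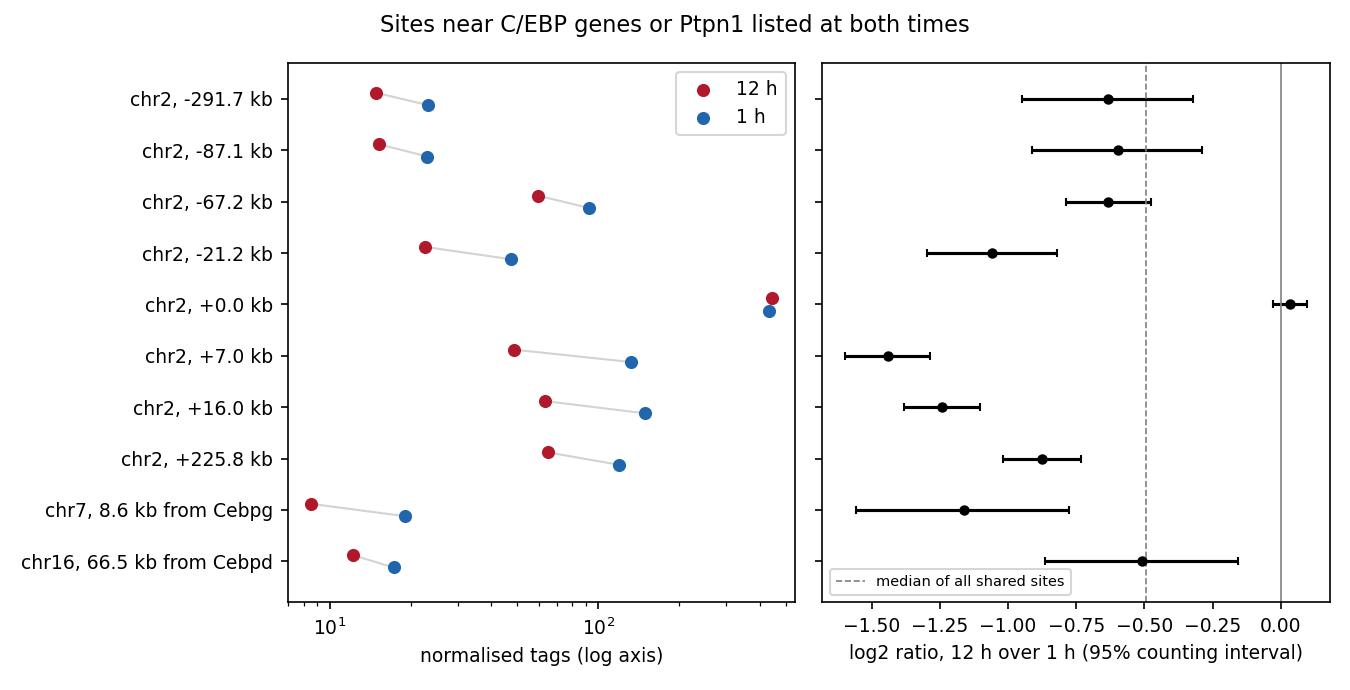
The 10 sites listed at both times, named by their distance from the strongest site (chromosome 2, minus towards Cebpb) or from the member gene. Left, normalised tags at 12 h (red) and 1 h (blue) on a log axis; right, the log2 ratio of 12 h over 1 h with its 95% counting interval, the dashed line being the median of all shared sites, -0.49. In 9 of 10 sites the interval lies below 0; the exception is the strongest site.

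Over the 5 genes, 10 sites were listed at both times, 2 at 12 h alone and 8 at 1 h alone. Shared sites were 83.3% of the 12 h peaks and 55.6% of the 1 h peaks, beside 84.5% and 43.2% over the whole lists. Of the 10 shared sites, 9 were lower at 12 h, beside 77.2% of the 2436 shared sites of the series, and in these 9 the counting interval lay below 0, beside 61.8%. The remaining site was higher, beside 22.8%. Of the 10, 4 were at least 2-fold lower, beside 24.5%. None was at least 2-fold higher, beside 1.44%. These 10 sites held a median of 69.7 tags at 1 h, beside 29.4 over all shared sites, and more tags narrow a counting interval. Their median log2 ratio was -0.75, and -0.88 without the strongest site, beside -0.49 over all shared sites. Over the 50 shared sites with most tags at 1 h the median was -0.76, and 19 of those 50 were at least 2-fold lower. Whether the number of tags accounts for the lower ratios near these genes was not tested. With that median of all shared sites taken as level, the 9 sites other than the strongest lay between -0.95 and -0.015, and 0 were at least 2-fold lower. The 8 sites of the 1 h list alone held 11.3 to 29.8 tags with a median of 15.2, beside 14.7 over all 3202 such peaks. Both lists were called against the same untreated library, which held 5 to 27 raw tags at these sites, and the untreated list had no peak within 200 kb of the 5 genes.

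**Figure D4:**
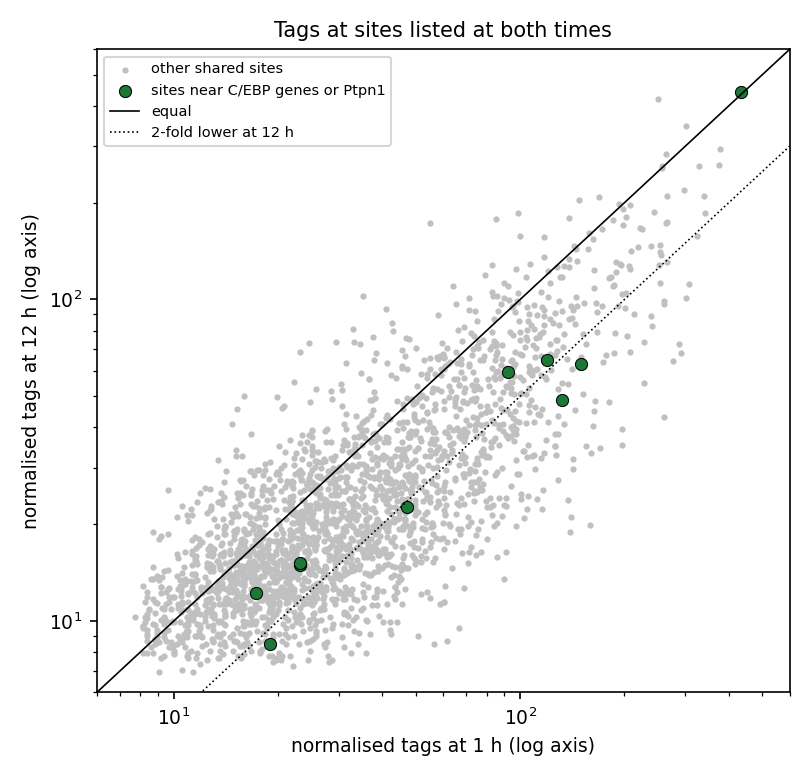
Normalised tags at 12 h against 1 h (log axes) for the 2436 sites listed at both times; green points are the 10 sites near C/EBP genes or Ptpn1. The strongest site lies on the line of equal tags, and 4 of the others lie at or below the dotted line of a 2-fold lower value at 12 h.

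All 5 genes had a peak within 200 kb at both times, by their choice. Of 21887 protein-coding genes 36.1% had one at 12 h and 55.1% at 1 h. Cebpb and Ptpn1 each had 9 at 12 h, and 9 and 10 at 1 h, where the median gene had 0 at 12 h and 1 at 1 h. As many peaks as that were found for 0.032% of genes at 12 h, and for 0.352% (as many as Cebpb) and 0.137% (as many as Ptpn1) at 1 h. Cebpa had 1 and 5, Cebpg 1 and 4 and Cebpd 1 and 2 peaks at 12 h and 1 h. Within 100 kb all 5 still had a peak at both times, beside 22.3% of genes at 12 h and 37.4% at 1 h. Within 25 kb there was a peak at Cebpg alone at 12 h, and at Cebpg and Ptpn1 at 1 h, beside 9.22% and 16.9% of genes. Nothing is read from these shares, since the peaks chose the genes. The outermost site inside the limit of 200 kb was the site of 25 tags at 1 h, 142 kb from Cebpa. The nearest outside it, closest to Chst8, held 9.82 tags at 12 h and lay 325 kb away.

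The shared sites with tags most like those of the strongest site, by distance in log2 tags over the 2 treated libraries, were nearest to Cdkn2aipnl, Pdlim5 and N6amt1. The Cdkn2aipnl site held 294 tags at 12 h and 378 at 1 h, a log2 ratio of -0.36. At Pdlim5, a gene for an actin-associated adaptor, they were 345 and 300.5 (0.20), and at N6amt1 262 and 374.5 (-0.51).

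Among 12 other C/EBP family genes and regulators of C/EBP proteins, the number with a GR peak up to 200 kb away was 6 at 12 h (50%) and 7 at 1 h (58.3%), beside 36.1% and 55.1% of all genes. Those at 12 h were the regulators Trib1, Trib2, Cop1, Hdac1, Smad3 and Gsk3b. Cebpe and Cebpz had no peak at either time, and Ddit3 had a peak at 1 h alone. Trib1, a pseudokinase that sends C/EBPα to degradation, held 49.8 tags at 12 h and 62.4 at 1 h at a site 76.5 kb away (log2 ratio -0.32, -0.50 to -0.15). The site of Gsk3b, a kinase that phosphorylates C/EBP proteins, lay 187 kb away, inside Pla1a. It held 24.2 and 60.2 (-1.31, -1.54 to -1.09). Cop1, the ubiquitin ligase that works with Trib1, had a site 181 kb away, inside Tnr, which was higher at 12 h, with 72.9 tags against 34.6 at 1 h (1.08, 0.88 to 1.27).

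Of 18 adipocyte differentiation genes, 8 had such a peak at 12 h and 12 at 1 h (44.4% and 66.7%), beside 36.1% and 55.1% of all genes. Of 17 acute phase and inflammatory genes, 7 had one at 12 h and 11 at 1 h (41.2% and 64.7%), beside the same shares of all genes. Inside Ebf1, a transcription factor gene of early adipocytes, the strongest 1 h site held 86.9 tags at 12 h, against 122 at 1 h, a log2 ratio of -0.49 (-0.62 to -0.36). A site 173 kb from Lpl, which encodes lipoprotein lipase, lay inside Csgalnact1 and held 19.4 tags at 12 h and 66.0 at 1 h. Klf15, a factor gene of late adipogenesis, had a site 17.5 kb away with 37.2 and 51.5. A site 174 kb from the acute phase gene Orm1, and nearer to Atp6v1g1, held 174 tags at 12 h and 265 at 1 h. The metallothionein genes Mt1 and Mt2 counted the same site, with 46.2 tags at 12 h and 110.5 at 1 h (-1.26, -1.42 to -1.10).

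Of 10 mammary differentiation genes, 3 had such a peak at 12 h (30%) and 4 at 1 h (40%), beside the same 36.1% and 55.1%. The site nearest to Ugt2a1 and 193 kb from the milk protein gene Csn2 was higher at 12 h, with 103 tags against 35.2 at 1 h (log2 ratio 1.54, 1.36 to 1.73), while sites 190 kb from Pgr, the progesterone receptor gene, and 90.1 kb from Tnfsf11, which encodes RANKL, were lower, with 10.6 and 25.4 tags and 9.31 and 23.6 tags at 12 h and 1 h. At these distances a peak need not belong to the gene named.

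Of 15 other non-receptor tyrosine phosphatase genes, 7 had such a peak at 12 h (46.7%) and 12 at 1 h (80%), beside 36.1% and 55.1% of all genes. Of 15 genes of PTP1B substrates and partners, 9 had one at 12 h (60%) and 12 at 1 h (80%), beside the same shares of all genes. Ptpn22 held 134 tags at 12 h and 138 at 1 h at a site 143 kb away (log2 ratio -0.05, -0.16 to 0.06), Ptpn13 98.6 and 129 (-0.39, -0.52 to -0.27), and Ptpn4 33.2 and 117 (-1.82, -2.00 to -1.64). Of the substrates, Dok1, an adaptor gene, had a site 2.93 kb away, inside M1ap, with 68.5 and 207 tags (-1.60, -1.73 to -1.47). The Bcar1 site, 66.0 kb away and inside Zfp1, held 28.5 and 84.8. Igf1r, a growth factor receptor gene, had a site 33.2 kb away, nearer to Pgpep1l, with 65.8 and 60.4 (0.12, -0.04 to 0.29). Jak2, the only member of the 6 lists with a peak within 200 kb at 12 h and none at 1 h, held 15.5 tags at a site 47.1 kb away. Stat5a is a member of both the adipocyte and the mammary list, and neighbouring genes can count the same peak.

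**Figure D5:**
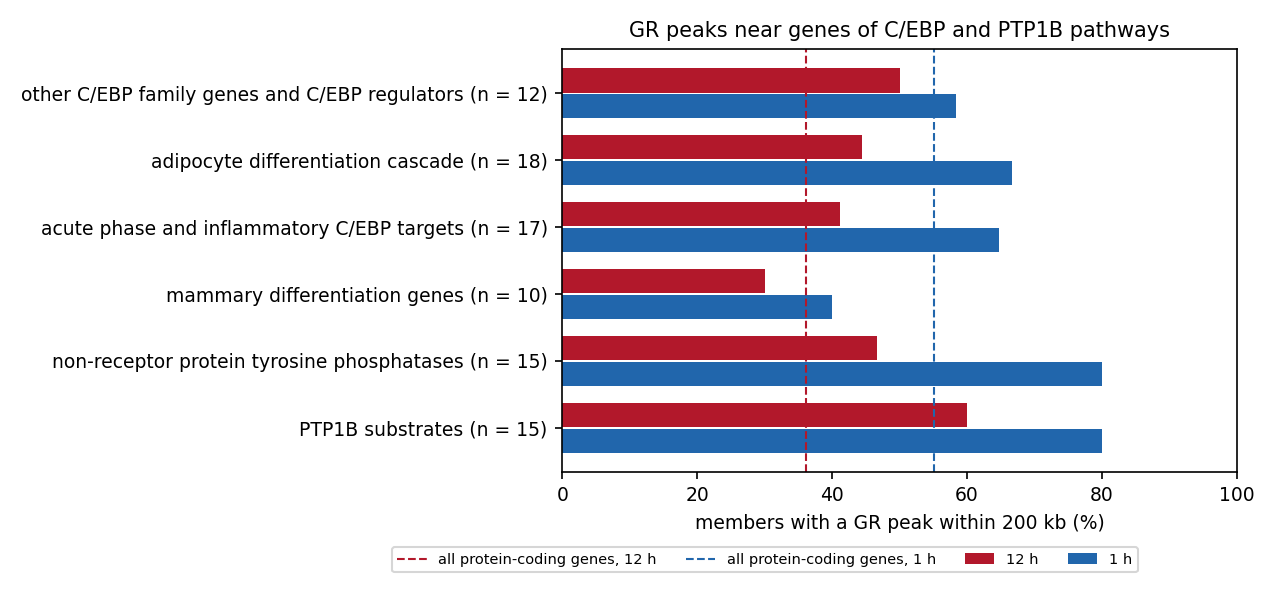
Share of each gene list (bars, %) with a GR peak within 200 kb at 12 h (red) and 1 h (blue); dashed lines give the share of all protein-coding genes, 36.1% at 12 h and 55.1% at 1 h. Shares run from 30% to 60% at 12 h and from 40% to 80% at 1 h.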

How the data were processed

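GR ChIP-seq was deposited as 1 peak list per library. The submitters' processing notes list bcl2fastq 2.17, Bowtie2 2.2.6, HOMER and the mm10 build (no HOMER version is named there). Per the file headers, peaks were called with findPeaks in its factor style (false discovery rate 0.001, threshold of 75 tags, 6-fold over control and over 10 kb around), the treated libraries against the untreated ChIP library and the untreated library against an input. The label of the input sample gives a corticosterone treatment, whereas the header names an untreated input. That input was not analysed here.

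The authors' normalised tag count is a signal scaled to 10000000 tags. Total tags of the treated lists are a signal the authors scaled to the untreated library; scaled back they were whole within 0.1 of a tag for 100% of peaks, and these raw tags gave Clopper-Pearson 95% intervals of the ratio (they cover counting error only: without molecular identifiers, reads are not independent molecules). Control tags are unscaled signal of the untreated library, per the file headers. The deposited score and the deposited fold (ratio) over control and over the local region describe peaks within a list. The focus ratio is a fraction deposited by the authors. The deposited p-values were not used.

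Peaks were paired by an overlap of at least 1 bp with Python 3.11.15, pandas 2.3.3 and scipy 1.17.1; pairing and intervals were tested on simulated data. Genes are RefSeq, GRCm38.p6. All 5 members and all 87 list entries matched. Promoter windows matched 4 of 5 members. Members and lists were chosen with earlier results of these data known. Named are every site near a member, the 3 members of each list with most tags at 1 h, members with a peak at 12 h alone, and the 3 sites most like the strongest. With 1 library per condition no test between conditions was possible. Alternatives changed the distance, the overlap, the minimum folds and the scaling.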

Additional observations from a re-analysis of the deposited data

How the results depend on the processing

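Within 100 kb in place of 200 kb, the counts of peaks and shared sites near the 5 genes stayed within 1.5 times. Within 50 kb, and equally within 25 kb, 1 peak was counted at 12 h, 3 at 1 h and 1 shared. Requiring both folds to be at least 12 left 5 peaks at 12 h, 9 at 1 h and 5 shared. Other overlap rules, tags per base and subtraction of untreated tags kept all counts and the median ratio within these limits; taken per base of its window, the strongest site was at -0.066. Setting the median of all shared sites to 1, a shift of 0.49 on the log2 scale, left 0 sites at least 2-fold lower and a median log2 ratio of -0.26. On that scaling the strongest site was at 0.53 and its neighbours 7.02, 16 and 21.2 kb away at -0.95, -0.75 and -0.56. The Pard6b, Cebpg and Cebpd sites were at -0.38, -0.67 and -0.015, and the Snai1 site and the sites 67.2 and 87.1 kb past Cebpb at -0.14, -0.10 and -0.14. For the gene lists, the members counted within 100 kb at 12 h and 1 h were 2 and 4 for C/EBP regulators, 4 and 7 for the adipocyte list, 4 and 8 for the acute phase list, 1 and 1 for the mammary list, 6 and 8 for phosphatases and 7 and 10 for PTP1B substrates, beside 22.3% and 37.4% of all genes. Within 25 kb they were 0 and 1, 3 and 5, 4 and 4, 0 and 0, 3 and 3, and 1 and 4 in the same order, beside 9.22% and 16.9% of all genes. These lists have 12, 18, 17, 10, 15 and 15 members. A smaller window can only keep or lower a count. The lists did not all fall alike, and the reason was not tested. Counting error limits the weaker sites, and the spread between replicates is unknown. No paired analysis was possible because each group has 1 library.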
